A study of Mus musculus with 36 samples.

Results

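The genes described here were 40 genes of DNA replication and S phase, taken by name from 21889 gene symbols measured in developing mouse liver. They were chosen for the known role of their products and for being listed in the data, not for any measured value. Earlier results of these data were known when the members, gene lists and comparisons were chosen. By role, 14 belonged to origin licensing and firing, 13 to the replication fork, 5 to nucleotide supply, 5 to S phase control, and 3 to chromatin assembly and repair. All 40 were measured at all 12 ages.

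The data were RNA-Seq measurements of poly-A mRNA from the livers of 36 male C57BL/6 mice (the C57BL/6J substrain by the study's methods), untreated and without any engineered allele. There were 3 mice at each of 12 ages, the earliest 2 days before birth (GD17.5, labelled Day -2). The others were the day of birth (Day 0), Days 1, 3 and 5, then Days 10, 15 and 20, and from adolescence to adulthood Days 25, 30, 45 and 60. Day 0 livers were taken right after birth, before the pups suckled, and weaning fell between the Day 20 and Day 25 collections. The study followed genes of hepatic energy metabolism from fetus to adult, and Day 60 served as the adult reference. Expression was given as FPKM, the number of sequenced fragments per kilobase of transcript and per 1000000 mapped fragments. Values are means ± SD of 3 mice unless each mouse is given, and the mice of an age are separate animals drawn from several litters.

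DNA is copied once in each cell cycle. In G1 the origin recognition complex, Cdc6 and Cdt1 load the Mcm helicase onto origins, and in S phase the helicase is switched on, primase and the DNA polymerases extend the new strands around the sliding clamp Pcna, and deoxynucleotides are made on demand. Many of these genes are switched on by E2F transcription factors near the start of S phase, and their mRNA is low in cells that have left the cycle. Liver before birth holds dividing hepatoblasts as well as the blood-forming cells of the fetus, whereas adult hepatocytes rarely divide.

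The promoter sequences of the members were read from RefSeq (GRCm38.p6), as windows of 300 bases that lie mostly upstream of each start site, and 33 of the 40 members had at least 1 window. Only members with a match to an E2F motif upstream of a start site could be shown. Mcm2, Pcna, Rrm2, Ccne1 and E2f1, among others, had no match in their windows. The stretches shown are those of 6 members with such a match, the 3 with the lowest adult levels (Orc1, Cdc6 and Dtl), a pair of helicase subunits (Mcm5 and Mcm6) and the fork gene with the smallest change (Rfc3). They are written 5′ to 3′ on the strand of the gene, and the capitals mark matches to an E2F motif, given here as the letters TTTGGCGC, TTTCCCGC, TTTGCCGC or TTTCGCGC on either strand.
Orc1, chr4:108579407-108579453, plus strand: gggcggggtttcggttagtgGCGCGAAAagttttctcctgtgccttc
Cdc6, chr11:98907993-98908040, plus strand: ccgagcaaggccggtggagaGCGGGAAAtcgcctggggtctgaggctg
Mcm5, chr8:75109336-75109387, plus strand: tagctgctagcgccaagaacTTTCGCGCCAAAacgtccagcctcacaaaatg
Mcm6, chr1:128359725-128359835, minus strand: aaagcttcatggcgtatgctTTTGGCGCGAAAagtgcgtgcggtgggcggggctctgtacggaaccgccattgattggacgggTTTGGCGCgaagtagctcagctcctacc
Dtl, chr1:191575545-191575572, minus strand: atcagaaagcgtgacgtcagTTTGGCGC
Rfc3, chr5:151651209-151651238, minus strand: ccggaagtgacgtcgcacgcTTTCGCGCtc
The match lay 27 bases upstream of the start site in Orc1, 138 in Cdc6, 8 in Dtl and 10 in Rfc3, counted from the first base of the match. Mcm5 held 2 overlapping matches and Mcm6 held 3, of which 2 overlapped. At least 1 match was present in 13 of the 33 members with a window (39.4%), in 21 of 61 other replication genes (34.4%), in 1 of 17 mitosis genes (5.88%), and in 381 of the 7946 genes with both a window and enough expression to be tested (4.79%). The letters TTTGAA, the core of the cell cycle homology region found in promoters of mitosis genes, were present in 3 of 33 members (9.09%), 17 of 61 other replication genes (27.9%), 12 of 17 mitosis genes (70.6%) and 1138 of 7946 tested genes (14.3%). The Sp1 box GGGCGG was present in 69.7% of the members and 67.6% of the tested genes, and CCAAT in 60.6% and 43.1%. A match is a description of the letters in the window, and no binding was measured.

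The 36 libraries were alike in summed FPKM, in correlation and in estimated depth, of which only the last bears on library size. Summed FPKM ranged from 353712 to 450597, and Pearson's r between mice of an age, on the log2 scale over all symbols, was at least 0.971 with a median of 0.988. The steps between low FPKM values gave a relative depth of 0.888 to 1.15 among libraries, at an estimated 82.8 times 1000000 fragments each, an estimate from 242 genes in which 79.9% of low values fell within 0.1 of a whole number of fragments. The 8 hepatocyte markers summed to between 8806 and 10690 FPKM in the GD17.5 mice and to between 41160 and 96920 FPKM in all mice born, so the hepatocyte genes were abundant at every age. Pancreas markers reached 15510 FPKM in 1 Day 60 mouse and were under 2.1 FPKM at GD17.5, and skeletal muscle markers reached 1150 FPKM in 1 Day 0 mouse; their part in the results was not tested. Mouse 1 of Day 20 stood apart in the members themselves and is described where it matters.

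All 40 members had their highest mean at GD17.5, which 41.1% of the 11149 genes tested also had. In 34 members every GD17.5 mouse lay above every mouse of the other ages, against 18.8% of all genes tested, and the exceptions were Gins2, Brca1, Rfc5, Tk1, Rfc3 and Mcm10. The lowest mean was at Day 60 in 23 members, at Day 45 in 16 and at Day 20 in 1, the last being Mcm10. The summed level of the 40 genes was 1536, 1512 and 1363 FPKM in the GD17.5 mice and 54.8, 57.0 and 64.8 FPKM in the Day 60 mice, a ratio of means of 24.99. The median member had a mean of 24.7 FPKM before birth and 0.864 FPKM by Day 60, and 22 members were then below 1 FPKM. The median ratio of the GD17.5 mean to the Day 60 mean was 28.6 for the members and 1.78 for the 11090 tested genes with a Day 60 mean above 0. In whole liver, fewer cells that make an mRNA and less of it in each cell cannot be told apart, here and in every result below.

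**Figure D1:**
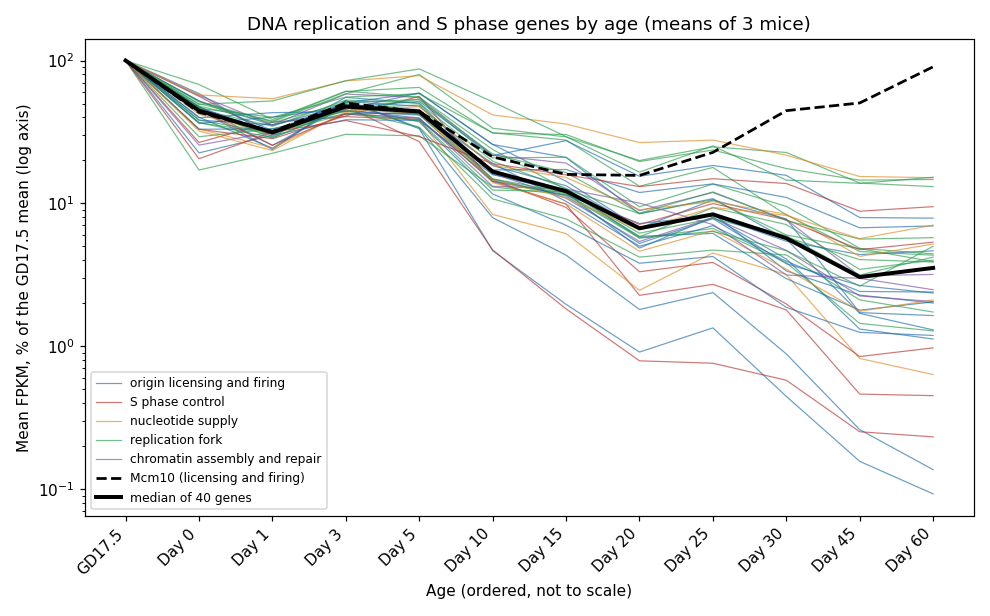
Mean FPKM of each of the 40 genes at 12 ages, as a percentage of its own GD17.5 mean on a log axis, with lines coloured by role, the median of the 40 genes as a thick black line and Mcm10 dashed. The median fell to 31.4% at Day 1, stood at 47.7% at Day 3, was 16.7% at Day 10 and ended at 3.53% at Day 60, while Mcm10 ended at 90.4%.

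The members were compared between ages by limma on log2(FPKM + 1), with p-values adjusted over all 11149 genes that reached a mean of 1 FPKM at 1 age or more, and a gene was called at an adjusted p under 0.05. All 40 members passed that filter, 22 of them with a Day 60 mean below 1 FPKM and so through their younger ages. In 4 of these (Pola1, Brca1, Ccne2 and Dtl) the mean over all mice was also below 1 FPKM. Every member was called different from Day 60 at 1 age or more, where 90.7% of all tested genes were. At GD17.5, 39 of 40 members were higher than at Day 60 (background 56.4% of tested genes), with a median difference of 3.59 on the log2 scale against 0.56 for all tested genes. The member not called was Mcm10. Upper quartile scaling, in which libraries were set to 1 shared upper quartile, moved the median of all tested genes from 0.56 to 0.15 and that of the members from 3.59 to 3.09, and scaling to TPM gave 0.60 and 4.04. In the 39 members all 3 GD17.5 mice lay above all 3 Day 60 mice, a separation seen in 60.4% of tested genes.

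**Figure D2:**
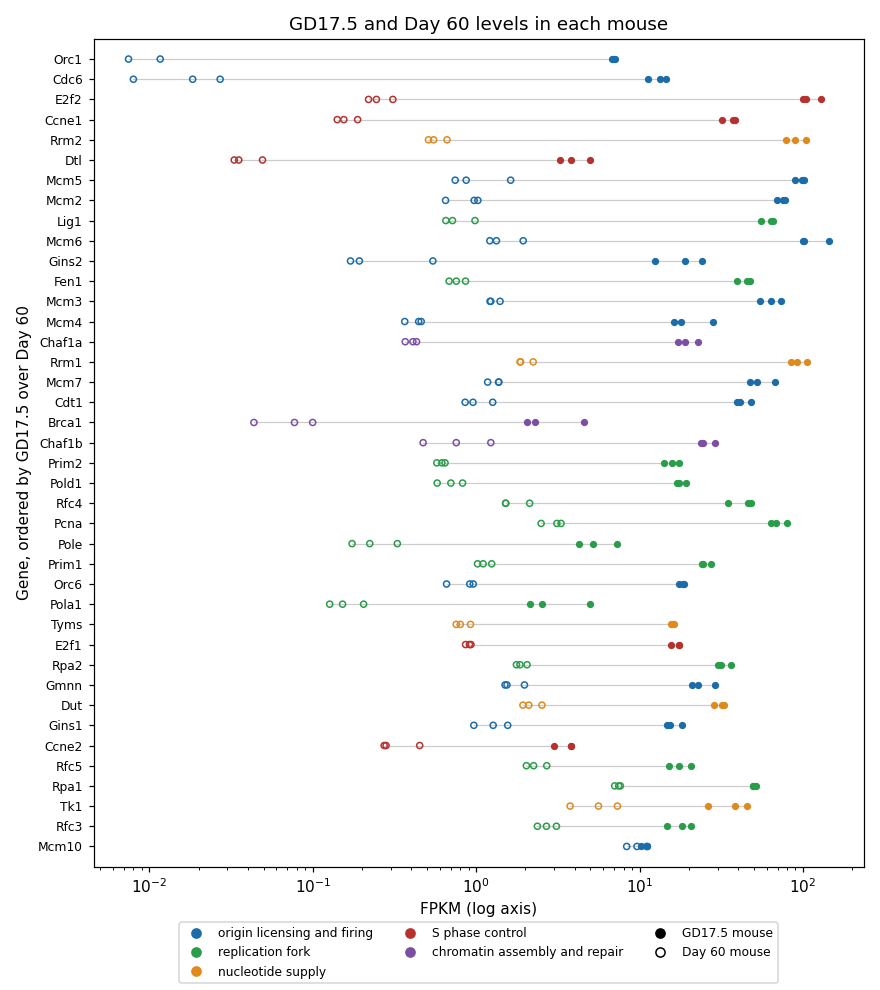
FPKM of each of the 40 genes in the 3 GD17.5 mice (filled points) and the 3 Day 60 mice (open points) on a log axis, ordered by the ratio of the means and coloured by role. The ages stay apart in 39 genes and meet in Mcm10; the Day 60 mouse in which Orc1 is listed at 0 cannot be drawn on this axis.

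Orc1 and Cdc6 had the lowest Day 60 means of all members. Orc1, the subunit of the origin recognition complex that is made anew in each cycle, stood at 7.03, 6.74 and 6.91 FPKM in the GD17.5 mice and at 0.00746, 0 and 0.0117 FPKM in the Day 60 mice. By Day 60 its level rested on about 2.17 fragments per library, and it is listed at 0 in 1 of the 3 mice, so no fold is given for it. Cdc6, which recruits the helicase loader, went from 14.6, 13.3 and 11.3 FPKM to 0.0184, 0.00799 and 0.0271 FPKM, with the Day 60 level resting on about 7.07 fragments per library. On the log2(FPKM + 1) scale the differences were 2.97 ± 0.12 (SE) for Orc1 and 3.78 ± 0.12 for Cdc6, with limma adjusted p of 2.68e-19 and 1.83e-21, and this scale understates the change of genes that end near 0. Neither gene's ages overlapped.

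The helicase subunits Mcm2, Mcm3, Mcm4, Mcm5, Mcm6 and Mcm7 form the ring that unwinds DNA. Mcm6 had the highest mean of all members at GD17.5, with 143.3, 102 and 99.6 FPKM in the 3 mice, and 1.33, 1.21 and 1.94 FPKM in the Day 60 mice. Mcm5 stood at 98.3, 101 and 89.6 FPKM and then at 0.744, 0.869 and 1.63 FPKM. The ratio of means ranged over the 6 subunits from 42.4 in Mcm7 to 89.1 in Mcm5, with Mcm2 at 84.1, Mcm6 at 76.9, Mcm3 at 49.9 and Mcm4 at 48.9. All 6 subunits were called higher at GD17.5 (limma adjusted p from 1.10e-12 for Mcm4 to 1.01e-18 for Mcm2). Cdt1, which brings the ring to the origin, fell from 42.8 ± 4.54 to 1.03 ± 0.212 FPKM, a ratio of 41.8. Geminin (Gmnn), the inhibitor of Cdt1, fell from 24.1 ± 4.16 to 1.67 ± 0.262 FPKM, a smaller ratio of 14.4. Gins2 and Gins1, parts of the complex that turns the ring into an active helicase, had ratios of 61.0 and 12.7, and Orc6 had 21.5. Gins2 shares 67.3% of its exonic bases with Gse1 on the opposite strand and the kit was not stated to keep strand, so reads of the pair cannot be told apart there.

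The 13 fork genes had ratios from 6.56 to 78.2. The largest were those of DNA ligase 1 (Lig1), which seals nicks between Okazaki fragments, at 78.2, and the flap nuclease Fen1 at 57.7. Fen1 shares 78.8% of its exonic bases with a long noncoding RNA gene on the other strand. Pcna, the sliding clamp, stood at 68.57, 80.01 and 63.65 FPKM in the GD17.5 mice and at 2.50, 3.31 and 3.12 FPKM in the Day 60 mice, a ratio of 23.8. The catalytic subunits of the polymerases differed in level more than in ratio, with Pold1 at 17.95 ± 1.14 FPKM, Pole at 5.58 ± 1.59 FPKM and Pola1 at 3.22 ± 1.56 FPKM at GD17.5, and ratios of 25.59, 23.04 and 19.97. The primase subunits Prim2 and Prim1, which lay down the RNA primers, had ratios of 25.7 and 22.6. The clamp loader subunits were less alike, with a ratio of 24.97 in Rfc4, 7.635 in Rfc5 and 6.56 in Rfc3, and so were the single-strand binding subunits Rpa2 (17.4) and Rpa1 (6.805). Rfc4 shares 12.65% of its exonic bases with Eif4a2, and Rfc5 10.69% with Wsb2, each on the opposite strand. Rpa1 was at 7.45, 7.04 and 7.63 FPKM in the Day 60 mice, the highest of the fork genes. All 13 were called higher at GD17.5.

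Among the nucleotide supply genes, Rrm2, the cell cycle dependent subunit of ribonucleotide reductase, fell from 104, 89.1 and 79.0 FPKM to 0.549, 0.664 and 0.511 FPKM, a ratio of 158. Its partner Rrm1 fell from 106, 84.7 and 92.4 FPKM to 1.87, 1.86 and 2.23 FPKM, a ratio of 47.4. Thymidylate synthase (Tyms), which makes dTMP from dUMP, and dUTPase (Dut), which keeps uracil out of DNA, had ratios of 19.26 and 14.2. Thymidine kinase 1 (Tk1), the salvage enzyme, kept the most of this group, with 26.3, 45.5 and 38.5 FPKM in the GD17.5 mice and 3.76, 5.61 and 7.32 FPKM in the Day 60 mice, a ratio of 6.61. All 5 were called.

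The S phase control genes had ratios from 10.55 to 431.5. E2f2, an activator of S phase genes, had 129.3, 104.3 and 100.4 FPKM in the GD17.5 mice, a mean below that of Mcm6 alone, and 0.309, 0.245 and 0.220 FPKM in the Day 60 mice, a ratio of 431.5. E2f1, a factor of the same family with overlapping targets, went from 16.83 ± 1.18 to 0.900 ± 0.0349 FPKM, a ratio of 18.7. Cyclin E1 (Ccne1), which drives entry into S phase with Cdk2, fell from 35.9 ± 3.50 to 0.162 ± 0.0242 FPKM, a ratio of 222, whereas cyclin E2 (Ccne2) fell from 3.54 ± 0.470 to 0.335 ± 0.1005 FPKM, a ratio of 10.55. Dtl, which targets Cdt1 for destruction on clamp-bound DNA, had a ratio of 103 that rested on about 13.6 fragments per library at Day 60. The ratio of Ccne1 rested on about 26.7. All 5 were called.

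In the last group, the histone chaperone subunits Chaf1a and Chaf1b, which place new histones behind the fork, had ratios of 48.6 and 31.4. Brca1, which protects and repairs stalled forks, had the lowest GD17.5 level of all members at 4.54, 2.29 and 2.05 FPKM and then 0.0437, 0.0773 and 0.0999 FPKM in the Day 60 mice, a ratio of 40.2. All 3 were called. Over the 5 roles, median ratios were 103 for S phase control, 49.4 for licensing and firing and 40.2 for chromatin assembly and repair. They were 23.04 for the fork and 19.26 for nucleotide supply, and each group's range overlapped with those of the others. The median of S phase control is the ratio of Dtl, and that of chromatin assembly and repair the ratio of Brca1. Both genes rested on few fragments per library at Day 60, so the order of the roles is not firm.

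Mcm10, a scaffold that helps to activate the helicase, was the exception in later life. It began at 10.95, 11.04 and 10.24 FPKM in the GD17.5 mice and had 4.03, 5.00 and 5.13 FPKM on Day 5, with the percentages of the median member. Its lowest values were the 1.69, 1.78 and 1.59 FPKM of Day 20. The Day 25 mice had 2.37, 2.91 and 2.05 FPKM, the Day 30 mice 4.72, 4.52 and 5.12 FPKM, the Day 45 mice 4.45, 6.11 and 5.70 FPKM, and the Day 60 mice 11.15, 8.34 and 9.64 FPKM. No Day 60 mouse overlapped with any mouse of Days 0 to 45, and the GD17.5 and Day 60 mice overlapped. The difference between GD17.5 and Day 60 was 0.14 ± 0.13 (SE, limma adjusted p = 0.335), and turned to -0.41 under upper quartile scaling (adjusted p = 0.0129). From Day 0 to Day 45 its level was lower than at Day 60 at every age, with differences of -1.99 ± 0.13 (SE) at Day 20 (limma adjusted p = 9.18e-13) and -0.74 ± 0.13 at Day 45 (adjusted p = 0.00673). It was the only member called higher from Day 25 to Day 30 (by 0.76 ± 0.13, limma adjusted p = 0.000549) and from Day 45 to Day 60 (by 0.74 ± 0.13, adjusted p = 0.00673). The difference between Day 45 and Day 60 was no longer called without Day 45 mouse 1 or without Day 60 mouse 1, nor after upper quartile or TPM scaling. The pancreas markers in the same Day 60 mice summed to 15510, 0.353 and 1.55 FPKM, and the mouse with the highest sum also had the highest Mcm10 level. The part of such tissue in the Mcm10 level was not tested. The gene lies on the minus strand at chr2:4910760-4933837 (NCBI37/mm9, GENCODE M1, gene ENSMUSG00000026669.8), has 10 annotated transcripts and shares no exonic base with another gene. The deposited values are per gene, so which transcript was present at each age was not tested.

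Between GD17.5 and adulthood the excess of the members over Day 60 shrank in stages. The count of members higher than at Day 60 was 37 on Day 0 (background 43.6%) and 39 on each of Days 1, 3 and 5 (backgrounds 53.4%, 55.7% and 56.9%). It was then 36 on Day 10 (35.3%), 34 on Day 15 (18.4%), 21 on Day 20 (8.93%), 27 on Day 25 (4.18%), 9 on Day 30 (1.77%) and 0 on Day 45 (0.0628%). The 1 member lower than at Day 60, from Day 0 to Day 45, was Mcm10. Those not called on Day 10 besides Mcm10 were Ccne2, Pola1 and Brca1, joined on Day 15 by Orc1 and Dtl, all genes of low level. The log2(FPKM + 1) scale compresses such levels, so a gene not called is not thereby at its adult level. Orc1 had 0.139, 0.153 and 0.114 FPKM in the Day 15 mice and 0.00746, 0 and 0.0117 FPKM in the Day 60 mice. Brca1 had 0.532, 0.229 and 0.409 FPKM on Day 10 and 0.0437, 0.0773 and 0.0999 FPKM at Day 60. Ccne2 overlapped between Day 10 and Day 60. At Day 45, limma's unadjusted p was under 0.05 for 0 members with a higher level than at Day 60, and Dunnett's test called 0 higher. The median difference from Day 60 was 2.36 for Day 0 and 2.62 for Day 5, then 1.49, 1.14 and 0.52 for Days 10, 15 and 20, and 0.76, 0.38 and 0.01 for Days 25, 30 and 45. Over all tested genes these medians were 0.25 and 0.53, then 0.22, 0.10 and 0.02, and -0.02, -0.08 and -0.12. With a pseudocount of 0.1 the member medians for Days 15, 20 and 25 were 1.74, 0.93 and 1.24. Those of all tested genes were then 0.16, 0.03 and -0.05. The share of members called stayed above the background at each age up to Day 30, and the gap was widest on Days 15 and 25. The 9 members still higher at Day 30 were Mcm6, Rrm2, Mcm5, Lig1, Gins2, Fen1, Chaf1b, Prim1 and Gins1, with differences from 1.57 ± 0.26 (SE) in Mcm6 to 0.63 ± 0.15 in Gins1. The Day 20 count was 5 without Day 20 mouse 1, 11 without Day 60 mouse 1 and 13 without Day 60 mouse 2. The Day 30 count was 5 and 4 without Day 60 mouse 1 and mouse 2, and 14 after upper quartile scaling.

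**Figure D3:**
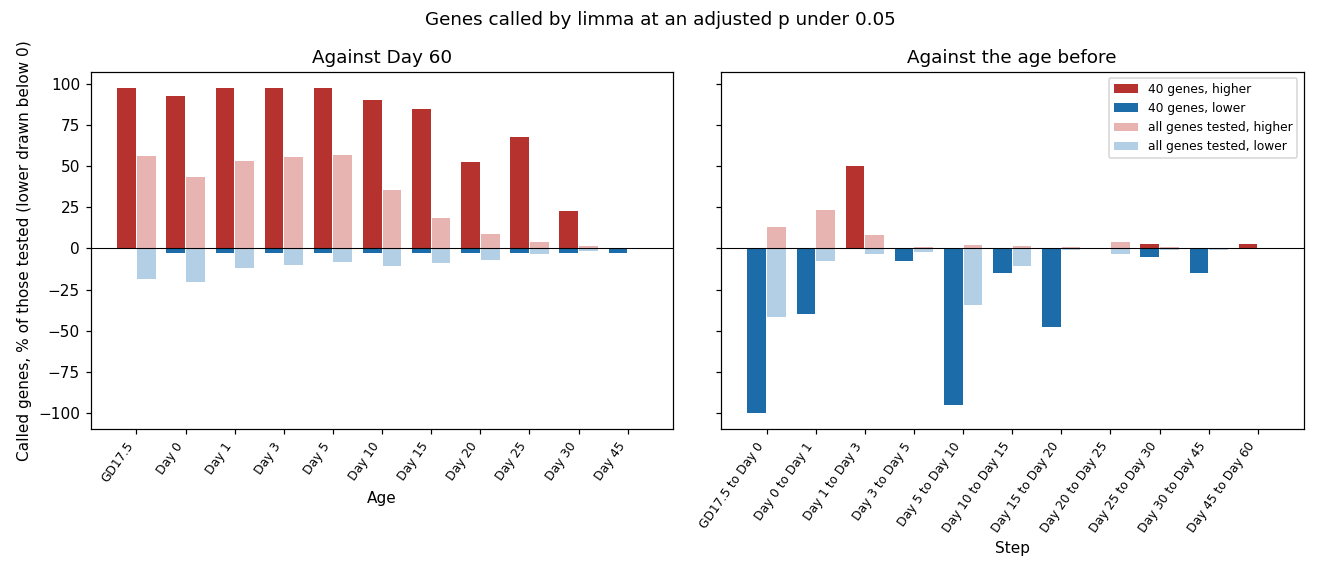
Percentage of the 40 genes (dark bars) and of all 11149 genes tested (pale bars) called by limma at each age against Day 60 (left) and at each age against the age before it (right), with genes called higher above 0 and genes called lower below 0. The members exceed the pale bars most at Days 15 and 25 on the left and at the steps into Day 0, Day 3, Day 10 and Day 20 on the right.

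The course between neighbouring ages was not smooth. From GD17.5 to Day 0 all 40 members fell (background 41.4%). The median member was at 44.6% of its GD17.5 mean at Day 0, from 17.1% in Pola1 to 68.0% in Pold1. Mcm4, for example, went from 28.1, 16.2 and 17.9 FPKM to 5.50, 5.30 and 3.24 FPKM. From Day 0 to Day 1 a further 16 fell (background 7.88%) and none rose, with 20 lower at an unadjusted p under 0.05. All 3 Day 1 mice lay below all 3 Day 0 mice in 23 members, against 9.02% of tested genes. The step was largest in Mcm5 (-0.95 ± 0.31, SE), E2f2 (-0.87 ± 0.18) and Mcm2 (-0.84 ± 0.22). Another 10 members had a higher mean at Day 1, most so Mcm4 (0.36 ± 0.29) and Ccne2 (0.29 ± 0.24), and none of them was called. The count for this step was 3 without Day 0 mouse 3, 10 without Day 0 mouse 2, 9 without Day 1 mouse 1, 10 without Day 1 mouse 3, 8 with a pseudocount of 0.1 and 6 after TPM scaling.

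Between Day 1 and Day 3 the members moved up. All 40 had a higher mean at Day 3 than at Day 1, where 58.3% of tested genes did, and in 33 all 3 Day 3 mice lay above all 3 Day 1 mice, against 20.4% of tested genes. The median ratio of the means was 1.532. The test called 20 of them higher (background 8.22%), with the lowest p in Cdc6 (0.94 ± 0.12, SE, limma adjusted p = 3.50e-06), Orc1 (0.77 ± 0.12, adjusted p = 4.63e-05) and Tyms (0.75 ± 0.14, adjusted p = 0.000362). Mcm2 was called with a larger difference than Orc1 (0.89 ± 0.22, adjusted p = 0.00821), and Mcm5, at 0.91 ± 0.31, did not pass (adjusted p = 0.0530). Cdc6 went from 3.41, 3.33 and 2.59 FPKM in the Day 1 mice to 7.84, 6.38 and 6.37 FPKM in the Day 3 mice. Gmnn, at 9.40, 9.41 and 12.4 FPKM and then 12.5, 9.04 and 10.3 FPKM, had the lowest ratio, 1.02, and its ages overlapped. The count was 5 without Day 1 mouse 3, 7 without Day 3 mouse 1, 10 without Day 1 mouse 1, 11 without Day 3 mouse 3, 12 without Day 3 mouse 2, up to 25 without Day 20 mouse 1, 9 with a pseudocount of 0.1, 5 after upper quartile scaling and 3 after TPM scaling. From Day 3 to Day 5 only E2f2, Cdc6 and Orc1 fell (3 members, background 2.12%), with differences of -0.82 ± 0.18 (SE), -0.54 ± 0.12 and -0.49 ± 0.12, and this count was 0 without Day 3 mouse 1, without Day 5 mouse 1, with a pseudocount of 0.1 and after TPM scaling.

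The second large fall came between Day 5 and Day 10, when 38 of 40 members fell (background 34.4%). All 3 Day 10 mice lay below all 3 Day 5 mice in 37 members, against 43.5% of tested genes. The median ratio of the Day 10 mean to the Day 5 mean was 0.387, and E2f2 (-2.31 ± 0.18, SE), Rrm2 (-2.03 ± 0.22) and Ccne1 (-1.77 ± 0.16) fell most on the log2 scale. E2f2 went from 23.1, 28.5 and 38.7 FPKM to 3.99, 6.98 and 4.78 FPKM. Pola1 and Ccne2 were not called, with differences of -0.43 ± 0.20 and -0.30 ± 0.24. From Day 10 to Day 15, 6 members fell (background 10.5%), a share near the background: E2f2, Cdt1, Pold1, Rfc3, Gins2 and Cdc6. That count was 3 without Day 10 mouse 2, 2 without Day 15 mouse 2 and 11 without Day 20 mouse 1.

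From Day 15 to Day 20, 19 members fell (background 1.16%), led by Ccne1 (-1.35 ± 0.16, SE) and Mcm6 (-1.34 ± 0.26). Mouse 1 of Day 20 did not share the low levels of the other Day 20 mice. It had the highest Day 20 value in 39 of 40 members, against 46.7% of tested genes, and in the median member it was 2.07 times the mean of the other mice. Its members summed to 149.5 FPKM, against 77.5 and 79.7 FPKM, and Mcm5 stood at 8.98 FPKM, against 2.30 and 2.76 FPKM. Its mitosis genes summed to 43.0 FPKM, against 20.2 and 18.7 FPKM. Its hepatocyte sum of 68150 FPKM lay between those of the other mice (67110 and 79500 FPKM), its erythroid sum of 3846 FPKM was the lowest (4736 and 3994 FPKM in the others) and its neutrophil sum of 11.2 FPKM the highest (6.95 and 3.96 FPKM). Its pancreas sum was 2.29 FPKM, against 5003 FPKM in mouse 2 and 4.88 FPKM in mouse 3. The part of any of these in the result was not tested. The number falling was 27 without this mouse, 10 without Day 15 mouse 1, 10 without Day 15 mouse 3, 4 without Day 20 mouse 2 and 3 without Day 20 mouse 3.

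After weaning the means turned up once more and then down. At Day 25, 38 of 40 members had a higher mean than at Day 20, where 38.3% of tested genes did, with a median ratio of 1.269. limma called 0 of them (background 3.94%), and 11 had an unadjusted p under 0.05. Without Day 20 mouse 1 the count was 10, and it was 1 without Day 3 mouse 1, Day 5 mouse 3 or Day 25 mouse 1. The exceptions in direction were E2f2 and Brca1. From Day 25 to Day 30, 2 members fell (background 0.807%), Mcm3 (-1.002 ± 0.22, SE) and Mcm7 (-0.76 ± 0.20), while Mcm10 rose. This count was 6 without Day 20 mouse 1, 4 without Day 25 mouse 2, 0 without Day 25 mouse 3 or Day 30 mouse 1, 1 without Day 30 mouse 2, 1 with no filter on low values and 5 after TPM scaling. From Day 30 to Day 45, 6 fell (background 0.798%), namely Mcm6, Rrm2, Gins2, Lig1, Pcna and Gins1, with differences from -1.33 ± 0.26 (SE) in Mcm6 to -0.62 ± 0.15 in Gins1. This count was 10 without Day 20 mouse 1, 2 without Day 30 mouse 2, 3 without Day 30 mouse 3, 1 without Day 45 mouse 1, 2 without Day 45 mouse 2 and 14 with a pseudocount of 0.1. From Day 45 to Day 60 the 1 member called was Mcm10, which was higher at Day 60 (background 0.17%).

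By the age groups of the study, the perinatal ages (GD17.5 to Day 5) were higher than adolescence and adulthood (Days 25 to 60) in 39 members (background 70.2%), with a median difference of 2.46 against 0.54 for all tested genes. The perinatal ages were higher than the pre-weaning ages (Days 10 to 20) in all 40 (background 61.2%), with medians of 1.68 and 0.35. The pre-weaning ages were higher than Days 25 to 60 in 37 (background 44.9%), with medians of 0.73 and 0.19. Mcm10 again stood apart, since its pre-weaning level was lower than that of Days 25 to 60 (-1.07 ± 0.07, SE), and its perinatal level differed from Days 25 to 60 by 0.08 ± 0.06 (limma adjusted p = 0.258), a difference of -0.46 under upper quartile scaling and -0.02 under TPM scaling.

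Ratios of means between birth and Day 5 are given as a description, with no test. Relative to Day 0, the Day 5 mean was 0.481 in E2f2, 0.751 in Cdc6, 0.779 in Mcm2 and 0.830 in Orc1, and 1.84 in Prim1, 1.77 in Rfc3, 1.73 in Pola1, 1.70 in Ccne1 and 1.69 in Mcm4. The mice of Day 0 and Day 5 did not overlap in E2f2, Cdc6, Prim1, Rfc3 and Ccne1, and they overlapped in Mcm2, Orc1, Pola1 and Mcm4. The share of all tested genes whose mice separate between these ages is not given here, so the separation cannot be called unusual. On Day 10, Orc1 and E2f2 were at 4.67% and 4.72% of their GD17.5 means, Cdc6 was at 7.94% and Rrm2 at 8.37%, whereas Rfc3 was at 51.4% and Tk1 at 41.6%. Subunits of the same complex differed, as Rfc4 was at 14.4% beside Rfc3 and Orc6 at 14.3% beside Orc1.

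Markers of blood-forming cells moved over the same ages. All 12 erythroid markers measured, which include globins, were higher at GD17.5 than at Day 60, as were 7 of 7 neutrophil lineage, 5 of 5 B lineage and 4 of 4 megakaryocyte markers, while all 8 hepatocyte markers were lower. Of all tested genes, 56.4% were called higher and 18.6% lower at GD17.5, so the smallest sets say little by their counts. Erythroid markers summed to 142300, 175200 and 196200 FPKM in the GD17.5 mice and to between 688 and 790.2 FPKM in the Day 60 mice, a ratio of means of 230, and none was at 0 in all Day 60 mice. The neutrophil sum lay between 1035 and 1714 FPKM in the GD17.5 mice and between 0.160 and 0.937 FPKM in the Day 60 mice. Of the B lineage markers, Igll1 was listed at 0 in all Day 60 mice, and Kupffer cell markers were split, with 2 of 4 higher and 2 lower at GD17.5. The erythroid sum also dropped from Day 0 to Day 1, to 0.391 of its mean, and then the Day 3 mean was 1.496 times that of Day 1, beside 0.699 and 1.565 for the member sum. Of the 12 erythroid markers, 10 were called lower at Day 1 (background 7.88%) and 5 higher at Day 3 (background 8.22%). Markers of other blood lineages were measured in the same mice. From GD17.5 to Day 0, when all members fell, 2 of 7 neutrophil and 3 of 5 B lineage markers were called higher (background 13.1%) and 0 of 4 megakaryocyte markers were called by limma. The Day 3 sum was 0.803 of the Day 1 sum for neutrophil, 0.7497 for B lineage and 0.572 for megakaryocyte markers. On Day 10 the neutrophil sum was 18.1%, the megakaryocyte sum 16.6%, the member sum 17.4% and the erythroid sum 7.54% of the GD17.5 mean. At Day 15 the erythroid sum was 2.11% and the neutrophil sum 1.67% of the GD17.5 mean, and the member sum was 13.3%. Between Day 15 and Day 20, when 19 members fell, 0 of 12 erythroid markers were called by limma, with 0 lower at an unadjusted p under 0.05. Of all tested genes, 1.16% were called lower at that step. The part of these cells in the members' levels was not tested.

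**Figure D4:**
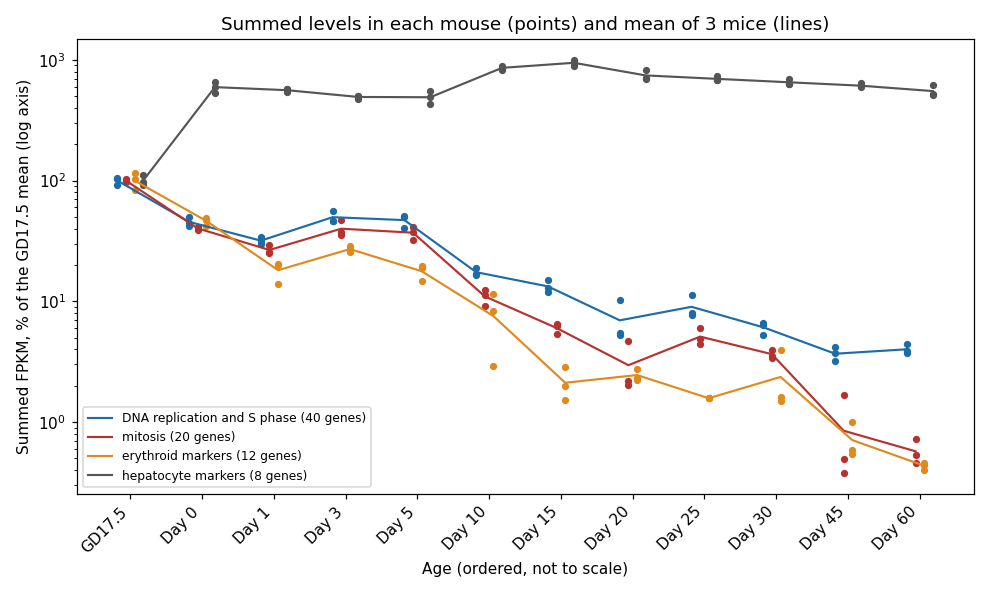
Summed FPKM of the 40 genes, of 20 mitosis genes, of 12 erythroid markers and of 8 hepatocyte markers in each mouse (points) with the mean of 3 mice (lines), as a percentage of the GD17.5 mean on a log axis. The member sum ended at 4.002% of GD17.5 by Day 60, the mitosis sum at 0.572% and the erythroid sum at 0.434%, and 1 of the 3 Day 20 mice lies above the others in the member and mitosis sums.

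The wider replication list held 77 further genes found in the data, of which 74 could be tested. At GD17.5, 71 of the 74 were higher and 2 lower than at Day 60, with a median difference of 2.12, where 56.4% of all tested genes were higher. On Day 20 the numbers were 10 and 1, with 8.93% of all tested genes higher. The largest differences were in Ccna2, the S and G2 phase cyclin (6.56), Asf1b, a histone chaperone (5.35), and Uhrf1, which maintains DNA methylation behind the fork (4.34). The smallest were in Shmt1, a folate enzyme of one-carbon metabolism (-0.96 ± 0.12, SE, limma adjusted p = 2.27e-08), Tk2, the mitochondrial thymidine kinase (-0.48, adjusted p = 0.000489), and Rbl2, a pocket protein that represses E2F targets in resting cells (-0.31, adjusted p = 0.275). All 3 kept this direction under both other scalings, with Rbl2 called under upper quartile scaling (-0.70, adjusted p = 0.0119). Shmt1 had 21.1, 22.7 and 20.5 FPKM in the GD17.5 mice and 41.8, 43.35 and 43.0 FPKM in the Day 60 mice. All 20 mitosis genes were higher at GD17.5 (background 56.4%), with a median difference of 4.54. The proliferation marker Mki67 went from 56.1, 25.1 and 12.0 FPKM to 0.0363, 0.0226 and 0.0265 FPKM, and Top2a, the topoisomerase that untangles replicated chromosomes, from 34.3, 19.3 and 17.2 FPKM to 0.0756, 0.0683 and 0.0647 FPKM. The mitosis sum fell to 0.572% of GD17.5 by Day 60, the member sum to 4.002%.

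Ratios of unaltered FPKM within a mouse do not change with the scaling of its library. With 0.1 FPKM added to each gene, as here, this holds only for levels well above 0.1 FPKM. They were compared between the 5 perinatal and the 4 oldest ages with an exact two-sided permutation test over age means, which can give no p below 0.00794, and p-values were adjusted over 10 pairs. The test treats the ages as exchangeable although they follow in time, so a ratio that drifts steadily with age can also reach this floor. The log2 ratio of E2f1 to E2f2 was -2.71 ± 0.16 (SD) in the GD17.5 mice, -2.04 ± 0.06 by Day 5, -0.03 ± 0.10 on Day 15 and 1.49 ± 0.16 in the Day 60 mice, a shift of -3.86 between the age groups (exact permutation adjusted p = 0.0132). E2f2 mRNA was above E2f1 up to Day 10 and below it from Day 20 on. Ccne1 over Ccne2 was 3.31 ± 0.05 in the GD17.5 mice, 0.60 ± 0.49 on Day 20 and -0.72 ± 0.37 by Day 60, a shift of 3.60 with the same adjusted p. The part of reads from Ints8, which overlaps Ccne2, in this ratio was not tested. Cdt1 over its inhibitor Gmnn was 0.84 ± 0.13 in the GD17.5 mice, 0.98 ± 0.31 on Day 10, 0.07 ± 0.25 on Day 15 and -0.66 ± 0.07 by Day 60, a shift of 1.397 with the same adjusted p. The mean ratio of this pair was lower on Day 15 than on Day 10 and lower again on Day 20, at -0.49 ± 0.47.

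**Figure D5:**
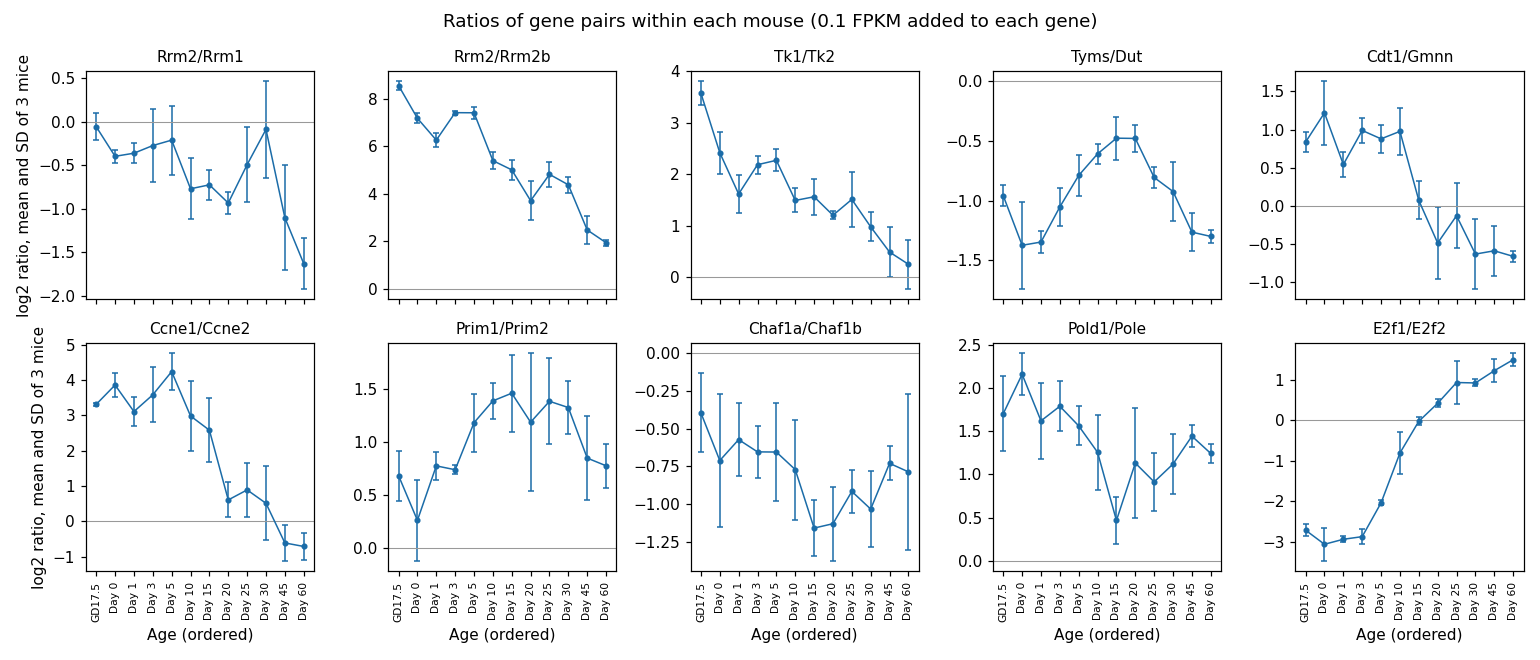
Mean log2 ratio of 10 gene pairs within each mouse at 12 ages, with bars giving the SD of 3 mice and a grey line at equal levels; 0.1 FPKM was added to each gene. E2f1/E2f2 climbs from -2.71 at GD17.5 to 1.49 at Day 60, while Tyms/Dut starts at -0.96 and ends at -1.30.

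In the remaining pairs, Rrm2 over Rrm2b, the p53-inducible subunit that serves resting cells, shifted by 3.96 (exact permutation adjusted p = 0.0132), and Rrm2b itself stayed between 0.0110 and 0.274 FPKM in all mice. Rrm2b thus lay near the 0.1 FPKM added to each gene, and the size of this shift depends in part on that value. Tk1 over Tk2 shifted by 1.60 (exact permutation adjusted p = 0.0227), with Tk2 between 2.57 and 6.81 FPKM throughout. Pold1 over Pole shifted by 0.59 and Chaf1a over Chaf1b by 0.27, each with the adjusted p of 0.0132, but with other pseudocounts the first was no longer called and the second changed sign. Chaf1a over Chaf1b was also not called without Day 0 mouse 2, Day 0 mouse 3 or Day 5 mouse 1 (exact permutation adjusted p = 0.0680 in each) or without Day 60 mouse 3 (exact permutation adjusted p = 0.1675). Rrm2 over Rrm1 (0.57, exact permutation adjusted p = 0.129), Prim1 over Prim2 (-0.35, adjusted p = 0.141) and Tyms over Dut (-0.03, adjusted p = 0.833) did not pass. Rrm2 over Rrm1 did pass without Day 30 mouse 1, with a shift of 0.65 (exact permutation adjusted p = 0.0132). Rrm2 and Rrm1 were near equal at GD17.5 and at Day 30 (log2 ratios of -0.06 ± 0.15 and -0.09 ± 0.55) and apart at Day 60 (-1.63 ± 0.29).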

How the data were processed

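The members, gene lists and comparisons were chosen with earlier results of these data known. Poly-A mRNA of 36 livers was sequenced as paired reads. The deposited values are FPKM per gene symbol, which the authors made with TopHat (1.2.0) against NCBI37/mm9 and Cufflinks (1.0.3) with the Ensembl annotation; the strand of counting is not given in the sources used here. Mice were grouped by the age in their labels, and all 36 had a mapped column. Genes whose mean reached 1 FPKM at any age (11149 of 21889) were tested on log2(FPKM + 1) with limma (3.58.1, R 4.3.3), with moderated variances that followed mean expression, contrasts of each age with Day 60, with the age before and between age groups, and Benjamini-Hochberg adjustment over all genes tested at 0.05. The limma p-values measure the spread between mice. Those of the gene pairs come from age means, so the spread between mice of an age does not enter them. In a check on simulated data, noise was normal, independent between genes and of the same spread at every age. That is the model the test assumes, so the check says little of genes near 0 or genes that vary together. Ratios of gene pairs within a mouse, with 0.1 FPKM added, were compared over age means by an exact permutation test. Named genes were all 40 members, the 3 largest and the 3 smallest differences of the wider replication list, the partners in pairs, Mki67 and Top2a. Fragments per library were estimated from the steps between low values, so intervals from counts are not given. Alternatives were pseudocounts, filters, upper quartile and TPM scaling, Dunnett's test, no variance trend, a replicate block, and each mouse left out in turn. Gene models came from GENCODE M1 (NCBI37/mm9), promoter windows from RefSeq (GRCm38.p6), and other values were computed in Python (3.11.15). Protein sequences were not used here.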

Additional observations from a re-analysis of the deposited data

How the results depend on the processing

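Of the counts of members recomputed with another pseudocount, filter, scaling, variance model or replicate block, 314 stayed within 1.5 times the first value and 20 did not. With a pseudocount of 0.1, 8 members fell from Day 0 to Day 1, 9 rose to Day 3, 0 fell to Day 5, 1 rose from Day 20 to Day 25 and 14 fell from Day 30 to Day 45. After upper quartile scaling, 1 member was lower at GD17.5 than at Day 60, 1 was lower in the perinatal than in the oldest ages, 14 were higher on Day 30 and 0 lower on Day 45 than at Day 60, 5 rose from Day 1 to Day 3, 1 rose from Day 20 to Day 25, and 0 rose from Day 45 to Day 60. After TPM scaling, 0 were lower on Day 45 than at Day 60, and by step 6 fell to Day 1, 3 rose to Day 3, 0 fell to Day 5, 5 fell to Day 30 and 0 rose to Day 60. With a minimum of 5 FPKM 1 rose from Day 20 to Day 25, and with no filter 1 fell to Day 30. Mcm10 changed sign, to -0.41 at GD17.5 against Day 60 under upper quartile scaling, and to -0.46 (upper quartile) and -0.022 (TPM) for the perinatal against the oldest ages.

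With 1 mouse left out, the ranges were 5 to 22 members higher on Day 20 and 4 to 11 on Day 30, and 0 to 1 lower on Day 45, than at Day 60. By step they were 3 to 17 falling to Day 1, 5 to 25 rising to Day 3, 0 to 3 falling to Day 5, 2 to 11 falling to Day 15, 3 to 27 falling to Day 20, 0 to 10 rising to Day 25, 0 to 6 falling to Day 30, 1 to 10 falling to Day 45 and 0 to 1 rising to Day 60. Ratio shifts ranged from 0.20 to 0.33 for Chaf1a/Chaf1b, from 0.52 to 0.65 for Rrm2/Rrm1 and from -0.068 to 0.0045 for Tyms/Dut, which became -0.33 with a pseudocount of 1 (exact permutation adjusted p = 0.0454) and 0.028 with 0.01. Chaf1a/Chaf1b became -0.062 with a pseudocount of 1 and Pold1/Pole 0.42 with 0.01 (exact permutation adjusted p = 0.0907). The cause of these changes was not tested.

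With the replicate block the counts were 40 members different from Day 60 at 1 age or more, 39 higher at GD17.5, 22 higher on Day 20, 17 falling to Day 1, 19 rising to Day 3 and 21 falling to Day 20, and no count moved by over 1.5 times. The labels name no shared animal or litter for mice with the same number. Deviations of such mice correlated with a median of 0.125 (-0.676 to 0.824), against a median of -0.051 for mice with different numbers. Whether the numbers mark a shared batch was not tested. Levels below about 0.1 FPKM rest on few fragments and limit what can be said of Orc1, Cdc6, Dtl and Brca1 in the adult. The same limit holds for Ccne1, whose Day 60 level rested on about 26.7 fragments per library, fewer than that of Brca1.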

Other observations

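The members did not vary as 1 block between mice of the same age. When each mouse's deviations from its age mean were taken relative to its median member, a first component held 43.1% of the variance, with Ccne2, Pola1, Mcm4, Dtl and Brca1 at one end (loadings 0.467, 0.394, 0.343, 0.327 and 0.322) and Gins2, Tk1, Rfc4 and Pold1 at the other (-0.229, -0.219, -0.169 and -0.153). This was computed after the values were seen and is a description. Across the 40 members, which share the same 36 libraries, the loading had a Spearman rho of -0.549 and a Pearson r of -0.615 with the GC content of the longest transcript, which was 36.3% for Ccne2 and 60.7% for Pold1. Ccne2, Pola1, Dtl and Brca1 are also the members with a mean over all mice below 1 FPKM. The deviations were taken with 0.1 FPKM added. The GD17.5 mice had 56.1, 25.1 and 12.0 FPKM of Mki67 and 28.1, 16.2 and 17.9 FPKM of Mcm4. Mcm2 had 77.2, 75.6 and 69.8 FPKM in the same mice. The part of base composition or of low level in these differences was not tested.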
